A study of Homo sapiens and Mus musculus with 29 samples.

Results

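The FOXA family of pioneer transcription factors was followed through RNA-seq of HPAF-II tumors and metastases and of KPC mouse cell lines. Its members were taken by gene symbol, FOXA1, FOXA2 and FOXA3 among the 58719 genes of the human table and Foxa1, Foxa2 and Foxa3 among the 54446 genes of the mouse table, and all 3 were found in each. HPAF-II is an established human pancreatic adenocarcinoma cell line with an epithelial phenotype, and its cells were injected into the pancreas of NSG mice, which lack lymphocytes. There were 21 HPAF-II samples and 8 KPC libraries. The labels name Cas9 in the HPAF-II groups without the HNF4G knockout, and the knockout itself was made by electroporating Cas9 protein with guide RNA.

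Control tumors (3 mice) are labeled with Cas9 and an empty vector. HNF4G-KO tumors (4 mice) and metastases (2 of the same mice, peritoneum) came from a pool of 3 HNF4G knockout clones, together with the empty vector. The study's methods call these clones knockouts and the pool HNF4G-/-, and also describe their frameshift mutations as heterozygotic. FOXA1-OE tumors (3 mice) are labeled with Cas9 and carried a FOXA1 overexpression vector. HNF4G-KO + FOXA1-OE samples combined the HNF4G knockout with that vector and comprised 5 tumors of 4 mice and 4 metastases of 3 mice, from the spleen (1), the peritoneum (1) and sites labeled as peri mets in fat (2). The promoter of the FOXA1 vector is not given in the sources used here, and reads of the vector were not separated from those of the cells' own gene. The KPC libraries were made from cell lines of KPC mice, a genetic model of pancreatic cancer, with 4 from a tumor line and 4 from its matched line of a liver metastasis. The study's methods call the replicates of RNA-seq biological, and the labels do not say whether the KPC libraries came from separate cultures, so that p-values measure the spread between these samples.

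FOXA proteins bind DNA through a winged-helix forkhead domain and can occupy their sites on nucleosomes, which is why they are called pioneer factors. In the embryo they open enhancers in the endoderm from which liver, lung, gut and pancreas arise, and FOXA1 and FOXA2 act there with partly overlapping functions. FOXA2 is a regulator of PDX1 in the pancreas, FOXA1 is best known as the partner of steroid hormone receptors in breast and prostate cells, and FOXA3 is mainly a factor of liver and gut. HNF4G is a nuclear receptor of the HNF4 family, which is found with FOXA factors at many enhancers of endodermal tissues.

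The 3 human genes lie on different chromosomes. In GRCh38, FOXA1 (ENSG00000129514.5) spans chr14:37589552-37596059 on the minus strand, FOXA2 (ENSG00000125798.14) spans chr20:22580998-22585455 on the minus strand, and FOXA3 (ENSG00000170608.2) spans chr19:45863989-45873797 on the plus strand. The promoters of 2 of the 3 members are in the RefSeq table used here (GRCh38.p14, 250 bases before to 50 after the start), and FOXA2 has no entry in it. Of the 2 shown, FOXA1 lies at the low end of the family in these cells and FOXA3, with FOXA2, at the high end. They are shown because motifs of forkhead factors, HNF4 and the TATA box could be looked for in them. Capitals mark a match on either strand to the forkhead motif TGTTTAC, its variant with TATTTAC, its variant with TGTTTGC, the HNF4 motif spelled CAAAGTCCA or the TATA box TATAAA, of which none contains another.
FOXA1, chr14:37595200-37595499, minus strand: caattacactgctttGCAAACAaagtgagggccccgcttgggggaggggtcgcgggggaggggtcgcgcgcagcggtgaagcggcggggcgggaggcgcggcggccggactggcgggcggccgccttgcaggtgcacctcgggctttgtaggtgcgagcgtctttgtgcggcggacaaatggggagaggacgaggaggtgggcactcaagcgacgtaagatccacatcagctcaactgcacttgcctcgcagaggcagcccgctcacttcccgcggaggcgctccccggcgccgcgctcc
FOXA3, chr19:45864076-45864375, plus strand: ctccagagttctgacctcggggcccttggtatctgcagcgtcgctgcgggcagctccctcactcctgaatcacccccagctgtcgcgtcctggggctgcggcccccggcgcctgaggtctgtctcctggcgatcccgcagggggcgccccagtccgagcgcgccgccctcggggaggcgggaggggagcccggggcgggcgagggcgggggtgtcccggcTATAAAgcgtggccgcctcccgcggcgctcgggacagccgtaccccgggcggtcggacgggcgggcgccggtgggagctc

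The FOXA1 window held 1 match, to TGTTTGC on the opposite strand, 235 bases before the start. This motif is in 3.89% of the 35116 promoters of the table, against 3.42% for TGTTTAC, 2.67% for TATTTAC and 0.384% for CAAAGTCCA, which neither window held. The FOXA3 window held TATAAA 30 bases before its start, a motif of 11.5% of promoters. Both windows were rich in G and C, at 69.3% in FOXA1 and 76.3% in FOXA3 against a median of 58.7%. In both genes the RefSeq start lies inside the longer span of the GENCODE annotation given above. These matches describe the sequence and were not tested for binding.

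RPKM values, which are reads per kilobase of gene, scaled to the depth of the library, allow levels of different genes to be compared. For FOXA1 the reads were divided by 3981 bases, and the length of the vector's insert is not given in the sources used here. If the insert is shorter, RPKM understates vector transcripts beside FOXA2 and FOXA3, which was not tested. The libraries held 33.2 to 69.6 M reads for HPAF-II (median 54.5 M) and 30.1 to 44.4 M reads for KPC (median 36.2 M), as worked out from the steps between RPKM values. FOXA1 rested on 87 to 5263 reads per HPAF-II sample, FOXA2 on 1431 to 4474 and FOXA3 on 980 to 3564, while Foxa3 rested on only 37 to 315 reads per KPC library. All 12 epithelial markers were at 1 RPKM or more in every HPAF-II sample. HNF4G mRNA, the target of the knockout, was at 2.48 to 3.47 RPKM in control tumors and 5.72 to 8.42 RPKM in HNF4G-KO tumors, and since a frameshift need not lower mRNA, this level does not check the label.

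Several libraries stood apart or had labels that disagree. The tumor labeled FOXA1-OE 3 had FOXA1 at 0.763 RPKM, within the range of control tumors, against 6.32 and 8.18 RPKM in tumors 1 and 2 of its group, so that the FOXA results and list calls that use it are also given without it. The summed level of 12 blood and spleen markers, mainly LYZ, was 63.8 RPKM in this tumor, 148 RPKM in HNF4G-KO + FOXA1-OE tumor 5 and 471 to 749 RPKM in all other HPAF-II samples, with 0 to 3 of them at 0. Over the genes tested, the deviations of these tumors from their group means correlated at 0.69. The description of the HNF4G-KO + FOXA1-OE samples counts from FOXA1 in tumor 1 to FOXA9 in tumor 5, whereas their title, source and treatment all give FOXA1. In the sample described with FOXA2, the spleen metastasis, FOXA2 was at 28.0 RPKM, against 14.5 to 25.8 RPKM in the other 8 samples of this genotype, and in the sample described with FOXA3 (metastasis 2, in fat) FOXA3 was at 18.4 RPKM, against 13.5 to 27.6 RPKM in the other 8. In the KPC lines, libraries of the same line with replicate numbers 1 and 2 differed from those with numbers 3 and 4, as described with their results.

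HPAF-II cells expressed FOXA2 and FOXA3 at similar levels and far less FOXA1. Over the 21 samples, FOXA2 had a median of 21.02 RPKM (13.9 to 28.3) and FOXA3 a median of 20.3 RPKM (13.5 to 27.7). FOXA1 had a median of 1.36 RPKM and ranged over 63.9-fold from 0.362 to 23.1 RPKM. This range takes in samples with the FOXA1 vector, and in those without it FOXA1 was at 0.362 to 1.87 RPKM. FOXA1 was the lowest member in 20 of the 21 samples, while FOXA2 was the highest in 11 and FOXA3 in 9, so that the order of FOXA2 and FOXA3 varied between samples. Among 44 forkhead genes, FOXA2 and FOXA3 ranked 4 and 5 by mean level, after FOXQ1 (72.4 RPKM), FOXL1 (41.3 RPKM) and FOXJ1 (39.6 RPKM). FOXQ1 is a forkhead repressor found in epithelial tumors, and FOXJ1 is the factor of motile cilia.

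**Figure D1:**
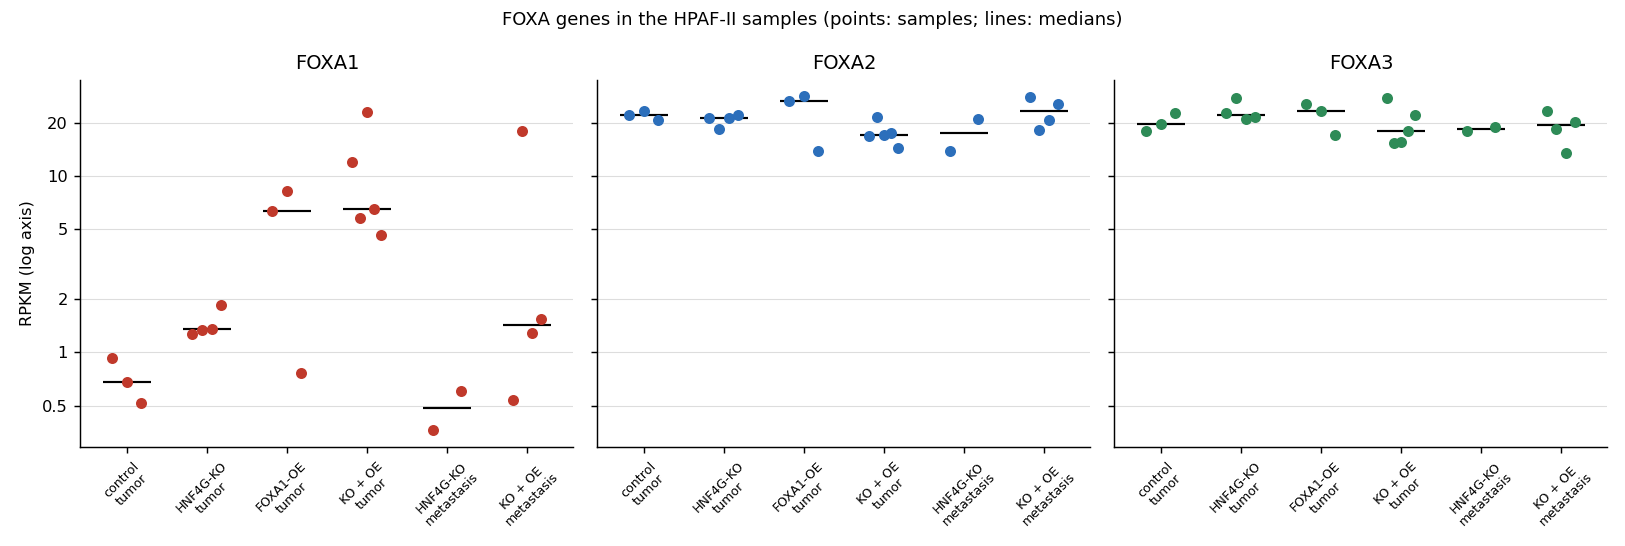
Level of FOXA1, FOXA2 and FOXA3 in RPKM (log axis) in each HPAF-II sample, by group; points are samples and lines are group medians (KO, HNF4G-KO; OE, FOXA1-OE). FOXA1 spans 0.362 to 23.1 RPKM, with values above 1.87 RPKM only in samples with the FOXA1 vector, whereas FOXA2 and FOXA3 stay between 13.5 and 28.3 RPKM.

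The HNF4G knockout was compared with control tumors to ask whether loss of HNF4G changes the FOXA genes. The control tumors had FOXA1 at 0.932, 0.679 and 0.519 RPKM, and the HNF4G-KO tumors had it at 1.26, 1.34, 1.36 and 1.87 RPKM. Every HNF4G-KO tumor was above every control tumor, and the mean of 1.46 ± 0.277 RPKM (SD, n = 4) was 2.05 times the mean of 0.7102 ± 0.208 RPKM (SD, n = 3) in controls. On the log2(RPKM + 1) scale, which understates the change of so low a gene, the log2 difference was 0.52 (SE 0.45) and did not pass the test over all genes (limma, adjusted p = 0.452), in a comparison in which 12.2% of the genes tested did. The exact two-sided permutation test gave p = 0.0571, the smallest value these numbers of mice allow, and 46.4% of all genes tested likewise had groups that did not overlap. The error in this fit is shared by all 4 groups of tumors and takes in the spread of FOXA1 among FOXA1-OE tumors. The difference was 0.96 (limma, adjusted p = 0.308) with a pseudocount of 0.1 and 1.04 (adjusted p = 0.0878) with the mean log2 level of 17 host stroma markers in the fit, whose sums were 53.2 to 192 RPKM in control and 49.9 to 71.1 RPKM in HNF4G-KO tumors. When only control and HNF4G-KO tumors entered the fit, the same difference of 0.52 had an SE of 0.14 and passed (limma, adjusted p = 0.0157), as did 39.7% of the genes tested.

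FOXA2 and FOXA3 stayed within the spread of the samples in the same comparison. Control tumors had FOXA2 at 22.1, 23.2 and 20.8 RPKM, close to the 21.2, 18.5, 21.3 and 22.1 RPKM of HNF4G-KO tumors. FOXA3 was at 18.1, 19.6 and 22.9 RPKM without the knockout and at 22.9, 27.7, 21.1 and 21.7 RPKM with it. The groups overlapped for both genes, with log2 differences of -0.08 (SE 0.21, adjusted p = 0.814) for FOXA2 and 0.20 (SE 0.20, adjusted p = 0.534) for FOXA3 by limma.

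With the FOXA1 vector, FOXA1 was above the range of control tumors in most but not all samples. FOXA1-OE tumors had 6.32, 8.18 and 0.763 RPKM, a mean of 5.09 ± 3.86 RPKM (SD, n = 3) that is 7.16 times that of control tumors, or 10.2 times without tumor 3. The third of these lies between the control values, and the groups therefore overlapped. The log2 difference of 1.53 (SE 0.48) did not pass (limma, adjusted p = 0.840; exact permutation p = 0.2, against a smallest possible p of 0.1). Without FOXA1-OE tumor 3 it was 2.27 (SE 0.30, adjusted p = 0.0696). In this comparison 0% of the 14269 genes tested passed limma at an adjusted p of 0.05, while 652 had an unadjusted p under 0.05. FOXA2, at 26.7, 28.3 and 13.9 RPKM, and FOXA3, at 25.5, 23.4 and 16.995 RPKM, were likewise higher in tumors 1 and 2 than in tumor 3. Their means differed little from control tumors, with log2 differences of -0.01 (SE 0.22) and 0.10 (SE 0.22), and without tumor 3 the differences were 0.31 (SE 0.16) and 0.27 (SE 0.22), neither of which passed.

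FOXA1 was highest in HNF4G-KO + FOXA1-OE tumors, where it was at 11.99, 5.76, 23.1, 6.50 and 4.65 RPKM. Tumors 2 and 3, at 5.76 and 23.1 RPKM, came from the same mouse, so that the level varied widely within 1 animal, and they were averaged before any test. Every tumor of this genotype was above every control tumor and every HNF4G-KO tumor, with a mean of 8.73 ± 3.72 RPKM (SD, n = 4 mice), 12.3 times that of control tumors and 5.99 times that of HNF4G-KO tumors.

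Against control tumors the log2 difference of FOXA1 was 2.43 (SE 0.45), the only FOXA result among the main comparisons that passed (limma, adjusted p = 0.00948), with 4.7% of the genes tested. Without control tumor 3 it was 2.35 and did not pass (adjusted p = 0.0584). The groups did not overlap, as for 18.9% of the genes tested, and the exact permutation p was 0.0571, the smallest possible. Against HNF4G-KO tumors the difference was 1.90 (SE 0.42) and did not pass (limma, adjusted p = 0.123), in a comparison in which only 0.0561% of genes did. Here the exact permutation p of 0.0286, again the smallest possible, belonged to groups that did not overlap, as for 15.2% of genes. When the same stroma markers entered the fit, the difference of 1.86 passed (adjusted p = 0.045), along with 0.554% of genes. Against FOXA1-OE tumors the difference of 0.90 (SE 0.45) did not pass (limma, adjusted p = 0.245; 7.86% of genes passed), and without FOXA1-OE tumor 3 it was 0.16 (adjusted p = 0.789).

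The FOXA1-OE effect on FOXA1 itself did not differ detectably by HNF4G status. The difference of the effects was 0.38 (SE 0.64, limma, adjusted p = 0.919) for FOXA1, -0.28 (SE 0.29, adjusted p = 0.843) for FOXA2 and -0.28 (SE 0.29, adjusted p = 0.837) for FOXA3, and 0.035% of genes passed. Without FOXA1-OE tumor 3 the sign for FOXA1 turned (-0.36, limma, adjusted p = 0.617), and the values were -0.59 for FOXA2 (adjusted p = 0.226) and -0.45 for FOXA3 (adjusted p = 0.399).

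FOXA2 was lower where both changes were combined, without passing the test. It was at 16.8, 21.6, 17.001, 17.4 and 14.5 RPKM in HNF4G-KO + FOXA1-OE tumors, a mean of 16.97 ± 1.95 RPKM (SD, n = 4 mice) against 22.04 ± 1.22 RPKM (SD, n = 3) in control tumors. After averaging the mouse with 2 tumors, every mouse of this genotype was below every control tumor, although tumor 2 itself was not, and 18.9% of all genes likewise had groups that did not overlap. The log2 difference was -0.36 (SE 0.21, limma, adjusted p = 0.362; exact permutation p = 0.0571, the smallest possible). Against FOXA1-OE tumors it was also -0.36 (SE 0.21, adjusted p = 0.311), and without FOXA1-OE tumor 3, the lowest of that group in FOXA2, it was -0.67 and passed (adjusted p = 0.0177), as did 7.42% of genes. FOXA3 was at 27.6, 15.3, 15.6, 18.0 and 22.3 RPKM and overlapped all other groups of tumors, with log2 differences between -0.18 and 0.02 in these comparisons, and -0.25 against FOXA1-OE tumors without tumor 3.

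**Figure D2:**
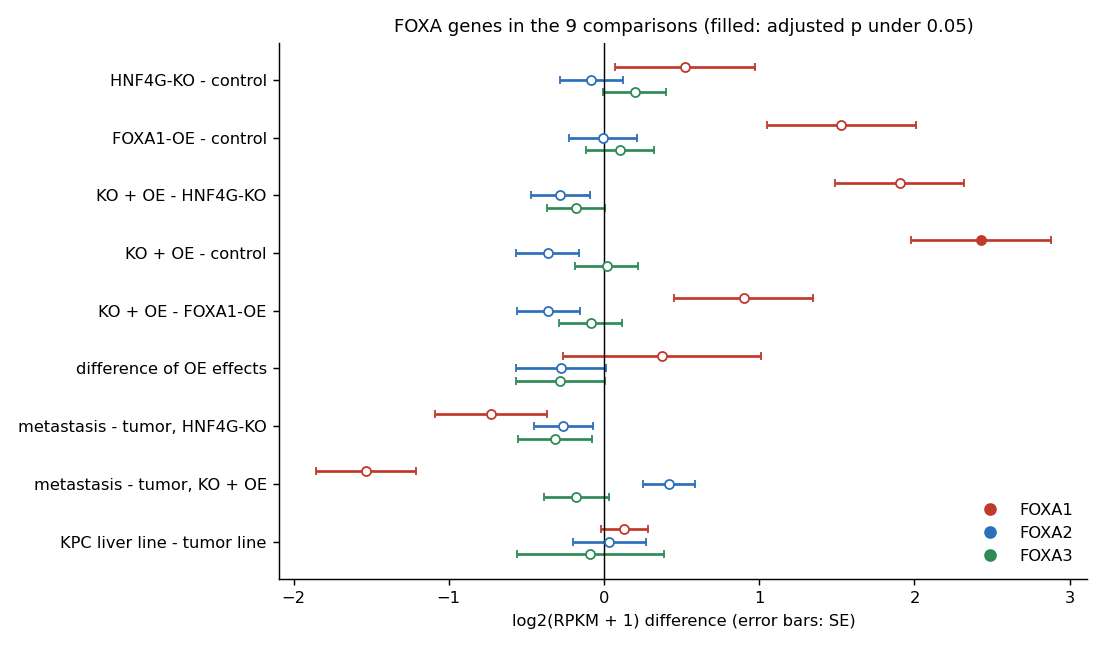
Difference in log2(RPKM + 1) of the 3 FOXA genes in each comparison, with SE as error bars and filled points for an adjusted p under 0.05 (limma); KPC values are those of the mouse genes. Only FOXA1 in HNF4G-KO + FOXA1-OE against control tumors (2.43) is filled.

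The make-up of the family differed with the level of FOXA1. FOXA1 was 1.17% to 2.27% of the summed RPKM of the 3 genes in control tumors and 2.79% to 4.09% in HNF4G-KO tumors. In FOXA1-OE tumors it was 10.8%, 13.7% and, in tumor 3, 2.41%. In HNF4G-KO + FOXA1-OE tumors it was 11.2% to 41.5%. The largest share belonged to tumor 3 of that group, the only sample of the 21 in which FOXA1 exceeded both FOXA2 and FOXA3.

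Tested over mice, the mean share was 18.9% ± 7.06 (SD, n = 4) in HNF4G-KO + FOXA1-OE tumors and 3.20% ± 0.610 (SD, n = 4) in HNF4G-KO tumors (exact two-sided permutation test, p = 0.0286, the smallest possible). Reads of the vector count in this share, so that a rise with the vector follows from the design. The summed level of FOXA2 and FOXA3, which the vector does not encode, had means of 42.2 ± 1.87 RPKM in control tumors (SD, n = 3), 44.1 ± 1.56 RPKM in HNF4G-KO tumors (SD, n = 4), 44.9 ± 12.1 RPKM in FOXA1-OE tumors (SD, n = 3; 51.9 RPKM without tumor 3) and 37.8 ± 4.47 RPKM in HNF4G-KO + FOXA1-OE tumors (SD, n = 4 mice). In every HPAF-II sample, FOXA1 was below the sum of FOXA2 and FOXA3 in RPKM. In samples with the vector, this order and the shares carry the limit of gene length given above. Against control tumors, the share was 7.29 percentage points higher in FOXA1-OE tumors and 10.6 points higher without FOXA1-OE tumor 3.

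**Figure D3:**
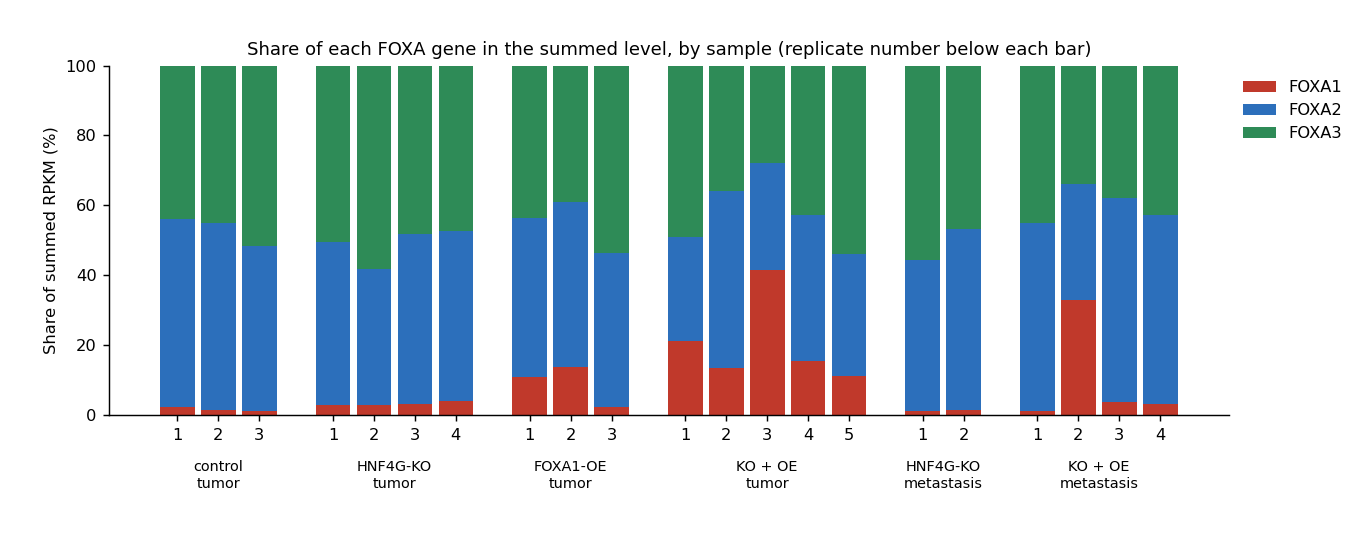
Share of each FOXA gene in the summed RPKM of the 3, in percent, for each HPAF-II sample (bars, with replicate numbers). FOXA1 makes up 1.17% to 4.09% in control and HNF4G-KO tumors and 11.2% to 41.5% in HNF4G-KO + FOXA1-OE tumors; tumor 3 of FOXA1-OE and 3 of the 4 HNF4G-KO + FOXA1-OE metastases lie under 4.09%.

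Metastases were compared with pancreas tumors of the same genotype to ask whether FOXA genes change with spread. FOXA1 was lower in most of them. In HNF4G-KO + FOXA1-OE samples its level joins reads of the vector and of the cells' own gene. Which of these changed there cannot be told apart. In the 2 peritoneal metastases of HNF4G-KO mice it was at 0.362 and 0.602 RPKM, against 1.34 and 1.87 RPKM in the tumors of the same animals, 3.69-fold and 3.10-fold lower. In HNF4G-KO + FOXA1-OE mice, the peritoneal metastasis was at 1.55 RPKM with a tumor at 6.50 RPKM, and the spleen metastasis was at 0.535 RPKM with a tumor at 11.99 RPKM, which is 22.4-fold lower and within the range of control tumors. The metastasis in fat from that same mouse was at 17.9 RPKM, above its tumor, and a metastasis in fat from a mouse without a sequenced tumor was at 1.296 RPKM. FOXA1 was therefore lower in the metastasis in 4 of the 5 pairs, and the lowest and the highest value among HNF4G-KO + FOXA1-OE metastases came from the same animal.

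The log2 difference of FOXA1 between metastases and tumors was -0.73 (SE 0.36, limma, adjusted p = 0.399) for HNF4G-KO and -1.53 (SE 0.32, adjusted p = 0.262) for HNF4G-KO + FOXA1-OE. Neither passed, in fits in which 0.0426% and 0.00709% of genes did. Without the spleen metastasis the latter difference was -0.93 (SE 0.57, adjusted p = 0.5), since the mouse was then represented by its metastasis in fat alone. With the mouse as a block the differences were -0.76 (adjusted p = 0.172) and -1.51 (adjusted p = 0.0661), while the number of genes called rose from 6 to 77 and from 1 to 11. Averaged by mouse, the groups of FOXA1 values did not overlap in either comparison, as for 33% of genes in HNF4G-KO (exact permutation p = 0.133, the smallest possible) and 6.53% in HNF4G-KO + FOXA1-OE (p = 0.0571, the smallest possible). In HNF4G-KO + FOXA1-OE this rests on averaging the metastases at 0.535 and 17.9 RPKM, which came from the same mouse. Their average on the log2 scale, 4.39 RPKM, lay just below the lowest tumor, at 4.65 RPKM. Taken singly, the metastasis at 17.9 RPKM was above all tumors of this genotype but tumor 3, at 23.1 RPKM. The share of FOXA1 in the sum of the 3 genes overlapped (exact permutation p = 0.171).

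FOXA2 moved the other way than FOXA1 between tumor and metastasis in 2 of the 5 pairs, both of them HNF4G-KO + FOXA1-OE. In metastases of that genotype it was at 28.0, 18.2, 20.8 and 25.8 RPKM, and averaged by mouse all 3 animals were above all 4 with tumors (23.1 ± 2.51 RPKM, SD, n = 3, against 16.97 ± 1.95 RPKM, SD, n = 4). The log2 difference was 0.42 (SE 0.17) and did not pass (limma, adjusted p = 0.482; exact permutation p = 0.0571, the smallest possible; 6.53% of genes did not overlap). In HNF4G-KO metastases, at 13.9 and 21.02 RPKM, FOXA2 was lower than in the tumors of the same mice, with a difference of -0.26 (SE 0.19, adjusted p = 0.558). FOXA3 was lower in the metastasis in 4 of the 5 pairs, at 18.0 and 18.9 RPKM in HNF4G-KO metastases and 23.5, 18.4, 13.5 and 20.3 RPKM in HNF4G-KO + FOXA1-OE metastases, and its differences of -0.32 (SE 0.24) and -0.18 (SE 0.21) did not pass either. In HNF4G-KO the FOXA3 groups did not overlap, as for 33% of genes (exact permutation p = 0.133, the smallest possible).

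Cells of the mouse host can add reads to these libraries, and their markers moved with the site. The summed level of 17 host stroma markers was 35.8 to 192 RPKM in tumors and 74.4 to 397 RPKM in metastases, with 0 to 3 of them at 0 in any sample. The sum of 20 pancreas markers was 2.17 to 1434 RPKM in tumors and 1.27 to 2.52 RPKM in metastases, where 7 to 10 were at 0. The sum of 15 hepatocyte markers was 1.34 to 5.90 RPKM in every HPAF-II sample but HNF4G-KO + FOXA1-OE tumor 5, at 30.6 RPKM. Their part in the FOXA differences was tested only by the fits with the stroma markers. For metastases against tumors, no FOXA gene passed in any alternative fit, those with stroma markers included. The lowest adjusted p there was 0.0661 (limma, FOXA1 in HNF4G-KO + FOXA1-OE). Over the alternatives, the FOXA1 difference was -1.44 to -0.51 in HNF4G-KO and -2.04 to -0.93 in HNF4G-KO + FOXA1-OE. In bulk samples like these, fewer cells of a type and less RNA per cell cannot be told apart.

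**Figure D4:**
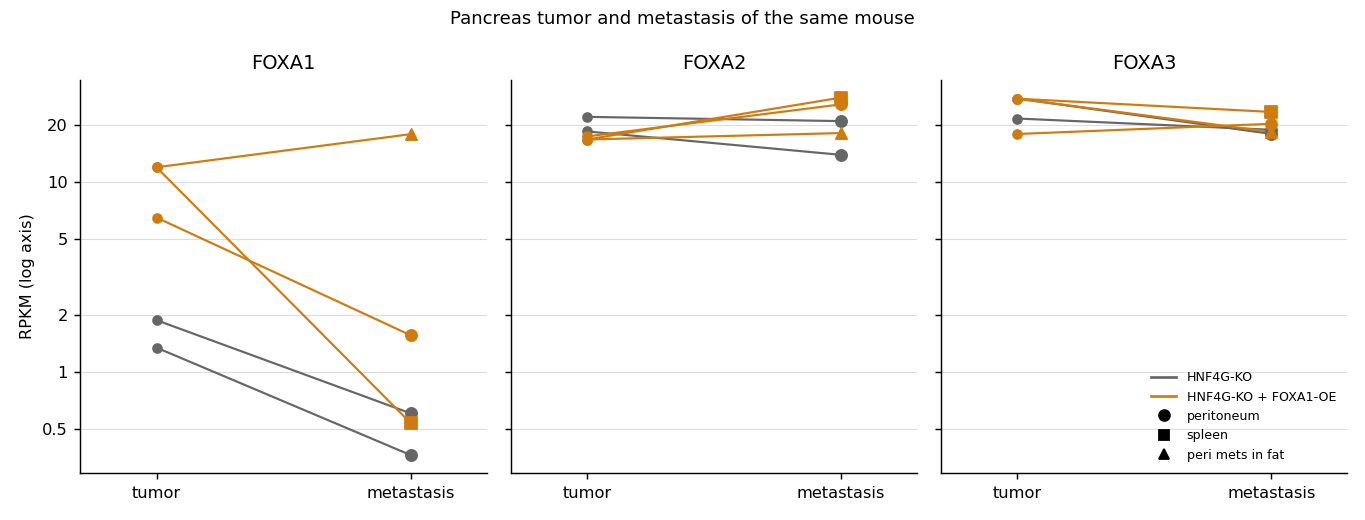
Level of each FOXA gene in RPKM (log axis) in the pancreas tumor and in the metastasis of the same mouse; lines join samples of an animal, colors mark the genotype and symbols the site. FOXA1 is lower in the metastasis in 4 of 5 pairs and higher only in the metastasis in fat at 17.9 RPKM, whereas FOXA2 and FOXA3 stay between 13.9 and 28.0 RPKM.

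KPC cells had another order of FOXA levels than HPAF-II cells. Foxa2 was the highest and Foxa3 the lowest member in all 8 libraries, and Foxa1 was a middle member at 9.84 to 14.8 RPKM, 23.4% to 35.3% of the sum. Among 44 forkhead genes, Foxa2 ranked 4 by mean level and Foxa1 ranked 9. Between the species these levels come from separate tables and gene models and were not tested against each other. Foxa1 (ENSMUSG00000035451.7) lies at chr12:57540628-57546916, Foxa2 (ENSMUSG00000037025.11) at chr2:148042877-148046969 and Foxa3 (ENSMUSG00000040891.6) at chr7:19013284-19023538 of GRCm38, all on the minus strand.

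In replicates 1 to 4 of the tumor line, Foxa1 had 14.8, 13.9, 9.84 and 10.0 RPKM, and in those of the liver line 14.7, 12.2, 12.4 and 13.6 RPKM. Foxa2 had 38.9, 42.2, 21.8 and 21.8 RPKM in the former and 26.2, 28.2, 34.04 and 34.4 RPKM in the latter. Foxa3 had 3.97, 3.19, 0.873 and 0.537 RPKM in the former and 0.782, 0.558, 2.95 and 3.27 RPKM in the latter. For Foxa2 and Foxa3, tumor libraries 1 and 2 and liver metastasis libraries 3 and 4 were high, and the other 4 were low, so that the labels cross the levels.

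Over all 8 libraries none of the 3 genes differed between the lines, with log2 differences of 0.13 (SE 0.15) for Foxa1, 0.03 (SE 0.23) for Foxa2 and -0.09 (SE 0.47) for Foxa3, each at an adjusted p of 1 in limma. In this comparison 0% of 12585 genes passed, while 109 had an unadjusted p under 0.05. The split into replicates 1 and 2 and replicates 3 and 4 follows the levels seen in these libraries, so that its values are a description with no test. Within replicates 1 and 2 the liver line differed from the tumor line by -0.09 in Foxa1, -0.56 in Foxa2 and -1.45 in Foxa3. Within replicates 3 and 4 it differed by 0.36, 0.63 and 1.28, and 9681 of the 12585 genes had opposite signs in the pairs.

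**Figure D5:**
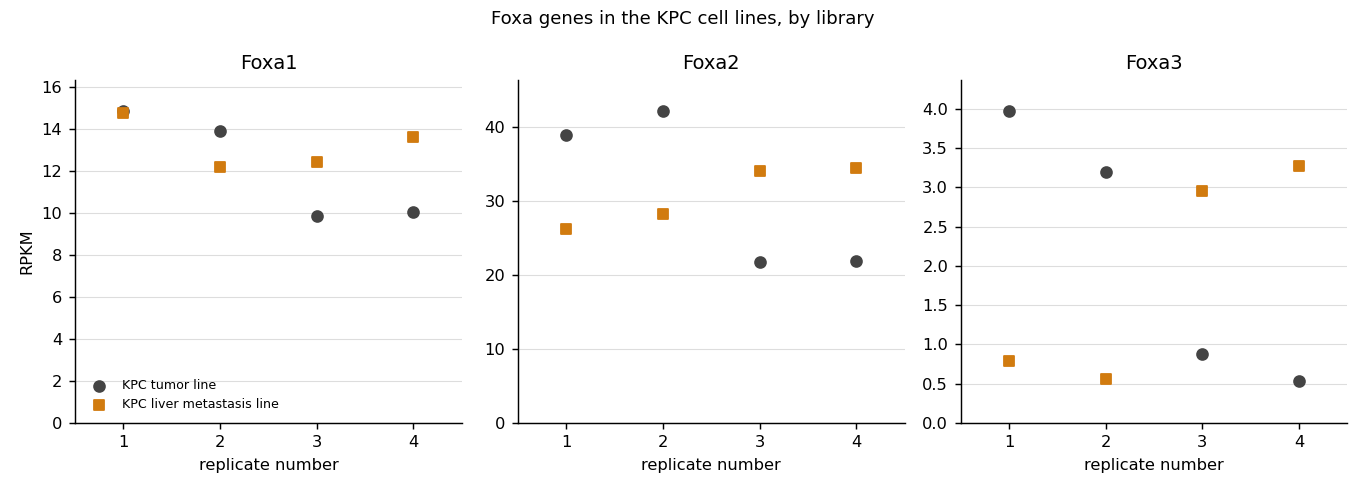
Level of Foxa1, Foxa2 and Foxa3 in RPKM (linear axes from 0) in each KPC library by replicate number, for the tumor line and the liver metastasis line. For Foxa2 and Foxa3 the tumor line is the higher in replicates 1 and 2 and the lower in replicates 3 and 4.

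Genes around the FOXA genes were examined next, within 500 kb on either side. No gene of the FOXA1 window reached a mean of 1 RPKM in HPAF-II samples. In the FOXA2 window THBD, which encodes the anticoagulant receptor thrombomodulin, was the only such gene besides FOXA2 (3.05 to 23.5 RPKM). LINC00261, a long noncoding RNA transcribed beside FOXA2 that accompanies it in normal endoderm, was nearly silent, with a highest value of 0.0176 RPKM and a median of 0 RPKM in samples with FOXA2 at 13.9 RPKM or more. In KPC cells the noncoding gene next to Foxa2, 9030622O22Rik, was at 5.68 to 22.6 RPKM. The FOXA3 window was dense, with 27 genes at a mean of 1 RPKM or more, among them SYMPK (5.43 to 14.3 RPKM), a polyadenylation factor 795 bases away, and VASP (32.3 to 73.7 RPKM), an actin regulator 337000 bases away. The others were GIPR, QPCTL, PPP5C, ERCC1, PPP1R13L, ERCC2, DMPK, CCDC61, POLR1G, OPA3, SNRPD2, RTN2, EML2, IRF2BP1, MYPOP, SIX5, FBXO46, DMWD, IGFL2, PPM1N, IGFL2-AS1, IGFL1P1, RPL12P41 and 2 genes without a symbol, with means between 1.15 and 85.0 RPKM. Of the 27, POLR1G, RTN2, IGFL2 and RPL12P41 were called in at least 1 of the 8 comparisons of HPAF-II samples, as were 16.4% of all genes tested.

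By Pearson correlation of log2(RPKM + 1) over the 21 HPAF-II samples, the members were nearly unrelated, with r of -0.12 between FOXA1 and FOXA2, -0.02 between FOXA1 and FOXA3 and 0.24 between FOXA2 and FOXA3. These values describe samples that share mice, genotypes and host content. The FOXA1 values also include reads of the vector in the samples that carry it. Correlations with FOXA1 therefore cannot separate the vector from the cells' own gene. Among 14229 genes, those most like FOXA1 included ENSG00000284377 (r = 0.76), DLX2 (0.75), PKIB (0.73) and AGPAT4 (0.71), and those least like it were CALB2 (-0.69), HTRA1 (-0.67) and NEMP2 (-0.65). FOXA2 was most like HOXC10 (0.86), GNAS (0.85), FOXQ1 (0.85), IRX5 (0.84) and HEXIM1 (0.84), of which HOXC10, FOXQ1 and IRX5 are transcription factors, and least like ANKRD22 (-0.81), EIF2B3 (-0.78) and TMX2 (-0.78). FOXA3 was most like PRSS22 (0.85), KIAA2013 (0.83), VASP (0.82), YIPF2 (0.79) and CLDN4 (0.79), a tight-junction claudin, and least like the mitochondrial transcripts MT-ND1 (-0.79), MT-ND6 (-0.78) and the pseudogene MTND4P12 (-0.77). VASP is thus both a near neighbor of FOXA3 and the third most like it in level.

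Over the 8 KPC libraries, which fall into the 4 high and 4 low libraries described above, r was 0.89 between Foxa2 and Foxa3, 0.76 between Foxa1 and Foxa2 and 0.59 between Foxa1 and Foxa3. Genes most like Foxa1 were 1700007L15Rik (0.98), Klf4 (0.97), Rps15 (0.96), Snord55 (0.96) and Rabepk (0.95), with Kdelr2 (-0.99), Slc31a2 (-0.99) and Flna (-0.96) at the other end. For Foxa2 they were Rogdi, AI661453, Colca2, Tdrp and Slc25a13 (0.98 to 1.00), with Pgrmc2, Atp6ap2 and Cnih4 at -0.98. For Foxa3 they were Hs6st2, Wfdc2, Cdh3, Efemp2 and Clic6 (0.99 each), with Ppp1r12b, Larp4b and Zscan29 at -0.99.

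In HNF4G-KO against control tumors, the other forkhead genes were called about as often as genes in general. Of 41 listed, 19 were tested in tumors, and in HNF4G-KO against control tumors FOXN3 rose (0.67, SE 0.13, limma, adjusted p = 0.00849) and FOXD1 fell (-1.11, SE 0.27, adjusted p = 0.0215), so that 2 of 19 were called beside 12.2% of all genes, with a median of 0.15 over the list and 0.01 over all genes. FOXD1 was also lower in HNF4G-KO + FOXA1-OE than in control tumors (-1.25, adjusted p = 0.0194), and FOXL1 was lower than in FOXA1-OE tumors (-0.89, limma, adjusted p = 0.023), but did not pass without FOXA1-OE tumor 3 (-0.80, adjusted p = 0.0623). Without that tumor, others were lower than in FOXA1-OE tumors and passed limma, beside 7.42% of all genes. They were FOXJ1 (-1.12, adjusted p = 0.00291), FOXD1 (-1.08, 0.0199), FOXQ1 (-0.93, 0.0144) and FOXO4 (-0.71, 0.0199). None was called in the other comparisons of HPAF-II samples or, of 15 tested, in KPC cells.

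Transcription factors that act with FOXA proteins in endoderm and pancreas had called members mainly in comparisons that involve the HNF4G knockout, which are also those with most calls over all genes. Of 18 tested, 3 rose in HNF4G-KO tumors, KLF5 (1.27, SE 0.19, limma, adjusted p = 0.0025), HNF4A (0.84, SE 0.19, adjusted p = 0.0172) and GATA6 (0.45, SE 0.14, adjusted p = 0.0482), and none fell, beside 12.2% called of all genes, with a median of 0.48 over the list against 0.01 over all genes. In FOXA1-OE tumors 0 of 18 were called, as were 0% of all genes, and the median was -0.04. HNF4A, which encodes the paralog of HNF4G, was at 8.49 to 11.3 RPKM in control tumors, 14.6 to 21.9 RPKM in HNF4G-KO tumors, 7.24 to 12.8 RPKM in FOXA1-OE tumors and 15.8 to 19.98 RPKM in HNF4G-KO + FOXA1-OE tumors. It was higher in the latter than in control tumors (0.82, adjusted p = 0.029) and than in FOXA1-OE tumors (0.87, adjusted p = 0.0151). Against FOXA1-OE tumors, CDX2 (1.101) was also higher and SOX2 (-2.09) lower, while 7.86% of all genes were called. Without FOXA1-OE tumor 3, HNF4A (0.69, limma, adjusted p = 0.0488) and SOX2 (-2.55, adjusted p = 0.00772) still passed and CDX2 (0.97, adjusted p = 0.0948) did not. HHEX was lower and passed only without that tumor (-1.09, limma, adjusted p = 0.0135), where 7.42% of all genes did.

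Of 33 tested genes for proteins with which FOXA factors work, coactivators, corepressors and chromatin remodelers, 8 rose and 2 fell in HNF4G-KO tumors, beside 12.2% called of all genes, with a median of 0.22. Those that rose included the coactivators NCOA2 (1.11) and NCOA3 (0.90), the corepressor NCOR1 (0.77), and TLE2 (0.79) and TLE4 (0.73) of the Groucho family, which binds FOXA proteins directly. The 2 that fell, named here after their values were seen, were the arginine methyltransferase PRMT1 (-0.50) and the deacetylase HDAC3 (-0.41). No cofactor was called in FOXA1-OE against control tumors, as no gene was. In HNF4G-KO + FOXA1-OE against FOXA1-OE tumors NCOA3 was higher (0.67) and HDAC3 lower (-0.50), and neither passed without FOXA1-OE tumor 3 (0.53, limma, adjusted p = 0.0782, and -0.48, adjusted p = 0.0536).

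Of genes that textbooks give as FOXA targets, 17 of 35 were tested. In HNF4G-KO tumors 4 rose, the trefoil peptide gene TFF1 (2.76, SE 0.70, limma, adjusted p = 0.0247), the disulfide isomerases AGR3 (2.28) and AGR2 (0.74), and HNF4A, and SERPINA1, which encodes alpha-1 antitrypsin, fell by 2.70 (SE 0.27, adjusted p = 0.000224). The list thus had 5 of 17 members called, beside 12.2% of all genes, in both directions and with a median of 0.08. SERPINA1 was at 109 to 142 RPKM in control tumors and 90.3 to 152 RPKM in FOXA1-OE tumors, but at 16.7 to 19.1 RPKM in HNF4G-KO tumors and 14.1 to 37.5 RPKM in HNF4G-KO + FOXA1-OE tumors. Metastases of both genotypes had 2.30 to 11.6 RPKM. In HNF4G-KO + FOXA1-OE against FOXA1-OE tumors, TFF1 and HADH passed limma only without FOXA1-OE tumor 3, where 7.42% of all genes did. Their differences were 2.85 (adjusted p = 0.0398) for TFF1 and -0.53 (adjusted p = 0.0287) for HADH. No gene of this list was called in FOXA1-OE against control tumors, in HNF4G-KO + FOXA1-OE against HNF4G-KO tumors, in metastases against tumors or between the KPC lines, comparisons in which 0% to 0.0561% of all genes were called.

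Markers of cell state were counted beside these lists. In HNF4G-KO against control tumors the epithelial factor OVOL1 rose (1.18, SE 0.32, limma, adjusted p = 0.0326), 1 of 12 epithelial markers tested, and VIM, which encodes the mesenchymal filament vimentin, fell (-1.36, SE 0.21, adjusted p = 0.00255), 1 of 6 mesenchymal markers tested, beside 12.2% called of all genes. The summed host stroma markers moved with VIM, at 192, 184 and 53.2 RPKM in control tumors and 71.1, 49.9, 57.7 and 62.5 RPKM in HNF4G-KO tumors, and their part in it was not tested. VIM was also lower in HNF4G-KO + FOXA1-OE than in control tumors (-1.16, adjusted p = 0.00815) and FOXA1-OE tumors (-1.08, adjusted p = 0.00735, or -1.12 and 0.0143 without FOXA1-OE tumor 3), and no other epithelial or mesenchymal marker of the lists was called.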

How the data were processed

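The authors made stranded libraries of poly-A RNA, aligned single-end reads with STAR 2.6.1a and counted them with featureCounts 2.0.4, per the methods and the submitters' processing notes. They deposited RPKM values, without read counts, in a table for each species. The methods name GRCh37 for human reads and the notes name GRCh38, and coordinates here are those of GENCODE annotations of GRCh38 and GRCm38 matched by gene ID without its version (58250 of 58719 and 54409 of 54446 IDs). The KPC table also held 12 columns of samples not described by these labels, which were not used.

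Values were taken as log2(RPKM + 1). Genes averaging 1 RPKM or more in a fit were tested with limma 3.58.1 in R 4.3.3 (lmFit, eBayes with a trend), and p-values were adjusted over all genes tested (Benjamini-Hochberg, threshold 0.05). The 4 groups of tumors shared a fit, a further fit held the tumors and metastases of both genotypes that had metastases, and another the 8 KPC libraries. Where a mouse gave more than 1 tumor or metastasis, these were averaged. Single values had two-sided exact permutation tests over mice or libraries (scipy 1.17.1). Depth was worked out from RPKM steps. Promoter sequences came from RefSeq and were searched for motifs on both strands. The fits were tested on simulated data, and alternatives were pseudocount, filter, scaling, samples in the fit, blocks and a stroma covariate.

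Tumors and metastases were paired by mouse from the labels, and deviations of paired samples from their group means correlated at 0.25, 0.30, 0.27 and -0.03. An unpaired metastasis and tumor reached 0.40 (HNF4G-KO metastasis 1 with HNF4G-KO + FOXA1-OE tumor 1). The deviations of the 2 HNF4G-KO metastases mirror each other, so that these values do not check the pairing. The members and gene lists were chosen with earlier results of these data known. Genes were named by a rule, which took the 5 most and 3 least correlated genes of each member, called genes of each list up to 6 per comparison, the 5 forkhead genes with the highest mean in HPAF-II samples, and neighbors averaging 1 RPKM or more, of which the 29 beside Foxa3 and Prps1l3 beside Foxa1 are not described. Some genes that the rule takes are not reported here.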

Additional observations from a re-analysis of the deposited data

Results flagged for a closer look

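Among 20 sets of 4 or 5 values (the 3 genes and the share of FOXA1 in each group of that size), 3 held a sample whose gap to its nearest neighbor was large for the range of its group, where chance gives about 1 in 20. FOXA1 in HNF4G-KO tumor 4, at 1.87 RPKM, was 1 of them, with 1.26 to 1.36 RPKM in the other 3 tumors. FOXA1 in HNF4G-KO + FOXA1-OE metastasis 2, a metastasis in fat, was at 17.9 RPKM and made up 32.9% of the FOXA sum, against 0.535 to 1.55 RPKM and 1.03% to 3.64% in the other 3 metastases.

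In the KPC lines, the difference between liver metastasis and tumor line had opposite signs in replicates 1 and 2 and in replicates 3 and 4. Both liver libraries were below both tumor libraries in the former and above them in the latter, so that the differences moved by -1.18 for Foxa2 and -2.73 for Foxa3 on the log2 scale. This grouping of the libraries came from their values, and the difference was not tested.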

How the results depend on the processing

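Over 27 results for single FOXA genes and 408 alternatives, 374 kept their direction and their side of the threshold, 29 changed sign, 4 kept their sign and passed the threshold where the reported value did not, and 1 no longer passed. Of the changes of sign, Foxa2 in KPC replicates 1 and 2 also passed. The 1 reported value that passed kept its sign in all of them, and the causes were not tested. On the log2 scale, FOXA1 in HNF4G-KO against control tumors passed when only these groups were fitted (0.52) and was larger with a pseudocount of 0.1 (0.96) and with the host stroma covariate (1.04), while FOXA1 in HNF4G-KO + FOXA1-OE against HNF4G-KO tumors passed with that covariate (1.86). With it FOXA2 changed sign in HNF4G-KO (0.17) and FOXA1-OE (0.21) against control tumors, as did FOXA3 in HNF4G-KO + FOXA1-OE against control tumors (-0.046) and FOXA1 in the difference of FOXA1-OE effects (-0.11). Scaling to the same median turned FOXA2 in FOXA1-OE against control tumors (0.027), and using each sample on its own turned FOXA3 in HNF4G-KO + FOXA1-OE against control tumors (-0.057).

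Leaving out a replicate gave -0.18 to 0.31 for FOXA2 and -0.010 to 0.27 for FOXA3 in FOXA1-OE against control tumors, and 2.26 to 2.66 for FOXA1 and -0.12 to 0.14 for FOXA3 in HNF4G-KO + FOXA1-OE against control tumors, where FOXA1 missed the threshold only without control tumor 3. Against FOXA1-OE tumors it gave -0.67 to -0.18 for FOXA2, which passed without FOXA1-OE tumor 3, and -0.25 to 0.040 for FOXA3. The difference of FOXA1-OE effects on FOXA1 ranged from -0.36 to 0.83. For metastases against tumors, FOXA2 ranged from -0.54 to 0.017 in HNF4G-KO, and FOXA3 from -0.30 to 0.014 in HNF4G-KO + FOXA1-OE. Between the KPC lines, Foxa2 ranged from -0.11 to 0.20, Foxa3 from -0.38 to 0.19 and the share of Foxa1 from -0.455 to 2.94 percentage points. Replicates 1 and 2 alone gave -0.092 for Foxa1, -0.56 for Foxa2 and -1.45 for Foxa3, and replicates 3 and 4 alone gave 1.28 for Foxa3.

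Replicate numbers of primary tumors did not pair the samples, since deviations of same-numbered tumors correlated between -0.27 and 0.63. With the number as a replicate block, FOXA3 in HNF4G-KO + FOXA1-OE against control tumors was -0.015, no FOXA call changed, and the genes called there fell from 670 to 344. The mouse block changed no FOXA call. In KPC cells, same-numbered libraries correlated between -0.41 and 0.21.

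Numbers of genes called depended on the fit. HNF4G-KO against control tumors had 1736, but 5595 with these groups alone, 3895 with the covariate and 284 to 1165 with a replicate left out, the lowest without control tumor 2. HNF4G-KO + FOXA1-OE had 670 against control tumors, 25 with these groups alone and 133 to 687 with a replicate left out, the lowest without control tumor 3, and 1122 against FOXA1-OE tumors, 86 alone and 1831 with the covariate. Against HNF4G-KO tumors it had 8, and 0 to 79 under alternatives. FOXA1-OE against control tumors had 0, and 3 without a filter. The difference of effects had 5, and 0 to 7. Metastases against tumors had 6 in HNF4G-KO, 77 with the mouse block and 353 without HNF4G-KO metastasis 1, and 1 in HNF4G-KO + FOXA1-OE, 11 with the block and 57 without tumor 2. Between the KPC lines, 3174 were called in replicates 1 and 2 and 81 in replicates 3 and 4, a split that follows the levels and so gives no test. FOXA1 in the sample with 87 reads and Foxa3 in the library with 37 reads rest on the fewest counts.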
